A study of Mus musculus with 16 samples.

Results

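The 8 transcripts described here are AK041157, AK039360, AK048672, AK029949, DQ687153, DQ540451, Gm3893 and 4930578G10Rik, 8 of the 20992 rows of a table of RNA levels in mouse aortic valves. They were chosen by their normalised values, as unannotated or predicted transcripts, other than Apoe, that were seen present in valves with an intact Apoe gene and near 0 in valves of ApoE knockout mice. The difference between knockout and intact valves is therefore what selected them. It is described below without a test. Presence in both intact groups and values near 0 in both knockout groups were also conditions of the choice. The size of a difference between the 2 intact groups, the variation among intact libraries and the difference between the sexes were not.

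RNA of the aortic valve was sequenced from mice of C57BL/6J strain background, in a study of fibrotic aortic valve stenosis under hypertension and high cholesterol. Control mice are called CON. Mice with transgenes for human renin and human angiotensinogen, the hypertensive model, are called HT. ApoE knockout mice, the hypercholesterolaemic model, are called HC, and mice with both the transgenes and the knockout are called HC/HT. So CON and HT share an intact Apoe gene and HC and HC/HT share its loss, whereas HT and HC/HT share the human transgenes. The table gives 4 CON libraries (1 female, 3 males), 4 HT (2 females, 2 males), 4 HC (3 females, 1 male) and 3 HC/HT (2 females, 1 male). The sources used here do not give age, the promoters of the transgenes, or whether a library holds the valves of 1 mouse or of several. The numbers that open the column names are all lower in HC and HC/HT than in CON and HT. What these numbers stand for is not given. Anything that followed their order cannot be told apart here from the loss of Apoe. The p-values below measure the spread between these libraries only.

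Values are normalised counts that the authors rounded to whole numbers, and they sum to nearly the same total in every library (10207928 to 10210305). The sequencing depth behind a value is unknown, and the lowest value above 0 was 2 in 14 libraries and 1 in the other one, so a value of 2 stands for the smallest amount that the table shows. In every library 7 of 7 markers of valve interstitial cells were above 0. Cell type content varied: summed smooth muscle markers ran from 466 to 25777, and the HT replicate 2 library stood apart with summed cardiomyocyte markers of 114297, against 1646 to 31994 in the others. In bulk tissue, fewer cells of a type and less RNA per cell cannot be told apart.

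Apoe encodes apolipoprotein E, which carries cholesterol-rich lipoprotein particles to the receptors that clear them, and mice without it have high plasma cholesterol and develop atherosclerosis. Names beginning with AK have the form of the full-length mouse cDNA clones collected by RIKEN, and names beginning with DQ have a form used among others for deposited piRNAs, short RNAs that guide PIWI proteins to transposons in the germline. Gm numbers mark predicted gene models and Rik names mark genes known first from a RIKEN cDNA, so that for none of the 8 is a protein function known here. Gm3893 and 4930578G10Rik lie on chromosome 4 in an interval known for tandem copies of genes, among them chemokine and interleukin-11 receptor genes.

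Positions were found for 2 of the 8. Gm3893 is a gene model of 2 exons on the plus strand at chr4:42091207-42092287 (GRCm38/mm10, GENCODE M21), typed protein coding by GENCODE and a transcribed pseudogene by RefSeq. The gene 4930578G10Rik spans chr4:42735545-42846248 on the plus strand, typed protein coding by GENCODE and a long noncoding RNA by RefSeq. The AK and DQ transcripts were used by name only.

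The sequences of these genes matter for what their values count, because near-identical copies lie beside them. The spliced Gm3893 transcript of 909 bases aligned at 98.1% identity or more, over at least 50% of its length, to transcripts of 12 other genes. All 12 were on chromosome 4, over 1.05 Mb from 41809083 to 42856771. Of these copies only Gm10600 has a row of its own in the table. Shown first are the opening 90 bases of Gm3893, picked as the stretch of that length with the most differences from Gm10600 (exon 1, chr4:42091207-42091296) and the matching bases of 3 copies, with capitals in Gm3893 wherever any of the 3 differs and in a copy wherever it differs from Gm3893. Gm2163 had 0 differences in this stretch, Gm10600 2 and Gm12394 5.
Gm3893: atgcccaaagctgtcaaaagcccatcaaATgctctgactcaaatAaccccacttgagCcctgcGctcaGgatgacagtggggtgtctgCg
Gm2163: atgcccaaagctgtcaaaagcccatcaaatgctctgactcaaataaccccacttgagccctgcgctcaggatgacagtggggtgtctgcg
Gm10600: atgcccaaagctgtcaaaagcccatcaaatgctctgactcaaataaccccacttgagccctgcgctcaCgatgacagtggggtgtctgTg
Gm12394: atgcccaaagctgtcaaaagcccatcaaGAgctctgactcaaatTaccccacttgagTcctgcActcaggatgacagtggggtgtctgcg

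4930578G10Rik had 2 such copies, Gm13307 at 98.6% and Gm13299 at 98.8% identity, and neither has a row. The stretch of 90 bases in the coding part of its exon 3 that differs most from Gm13299 (chr4:42760994-42761083, plus strand) differed from each copy at 4 positions, marked in capitals in the same way, and both copies are the same there.
4930578G10Rik: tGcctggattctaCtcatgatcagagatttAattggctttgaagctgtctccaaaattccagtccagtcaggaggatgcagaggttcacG
Gm13299: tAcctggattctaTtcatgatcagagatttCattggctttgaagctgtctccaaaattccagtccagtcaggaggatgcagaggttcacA
Gm13307: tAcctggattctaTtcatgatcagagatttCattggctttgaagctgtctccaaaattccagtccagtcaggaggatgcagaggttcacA

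The sources used here do not give how reads that fit several copies were counted, or whether strand was used. A short read from the stretch shared by Gm3893 and Gm2163 cannot be assigned to either, so the Gm3893 row may hold reads from its copies, and its value is uncertain as that of a single locus.

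The knockout labels were checked on Apoe first. It was listed at 10329, 10352, 6326 and 4063 in CON, at 6218, 3248, 578 and 3916 in HT, at 126, 71, 61 and 22 in HC and at 100, 77 and 61 in HC/HT. The lowest intact library, HT replicate 3, was still above the highest knockout library. The mean of the 7 knockout libraries was 1.31% of that of the 8 intact ones, and the log2 difference was -5.81 (exact permutation test over 6435 splits, two-sided, p = 0.000311).

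AK041157, a transcript with no gene symbol, was listed at 739, 421, 638 and 364 in CON, at 155, 244, 186 and 861 in HT, at 12, 2, 0 and 17 in HC and at 2, 17 and 9 in HC/HT. AK039360 was at 203, 109, 176 and 88 in CON, at 45, 70, 54 and 241 in HT, at 2, 0, 0 and 0 in HC and at 0, 2 and 2 in HC/HT. In both, every intact library lay above every knockout library, and HT replicate 4 was the highest of the 15. AK041157 kept values above the smallest step in 4 of 7 knockout libraries, whereas no knockout value of AK039360 exceeded 2.

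The other AK transcripts followed the same outline. AK048672 was at 127, 103, 142 and 60 in CON, at 45, 54, 40 and 176 in HT, at 3, 0, 2 and 6 in HC and at 2, 2 and 0 in HC/HT. AK029949 was at 86, 34, 77 and 21 in CON, at 20, 22, 15 and 75 in HT, at 2, 2, 0 and 4 in HC and at 2, 0 and 4 in HC/HT. In units of the table, AK029949 had the narrowest gap of the 8, from 15 in HT replicate 3 to 4 in HC replicate 4 and HC/HT replicate 3.

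The DQ transcripts were at or near 0 in the knockout libraries as well. DQ687153 was at 84, 64, 57 and 37 in CON, at 21, 32, 21 and 82 in HT, and at 0 in all knockout libraries except HC replicate 1, where it was 2. DQ540451 was at 65, 44, 54 and 39 in CON, at 20, 20, 19 and 72 in HT, at 2, 0, 0 and 4 in HC and at 0, 0 and 2 in HC/HT. For both, the groups with and without Apoe did not overlap.

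The chromosome 4 genes had their highest values in CON and in HT replicate 4. Gm3893 was at 104, 66, 104 and 49 in CON, at 28, 25, 36 and 149 in HT, at 2, 0, 0 and 11 in HC and at 0, 2 and 2 in HC/HT. 4930578G10Rik was at 50, 26, 54 and 33 in CON, at 23, 25, 17 and 51 in HT, and listed at 0 in all 7 knockout libraries. No fold is given for it against groups listed at 0.

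**Figure D1:**
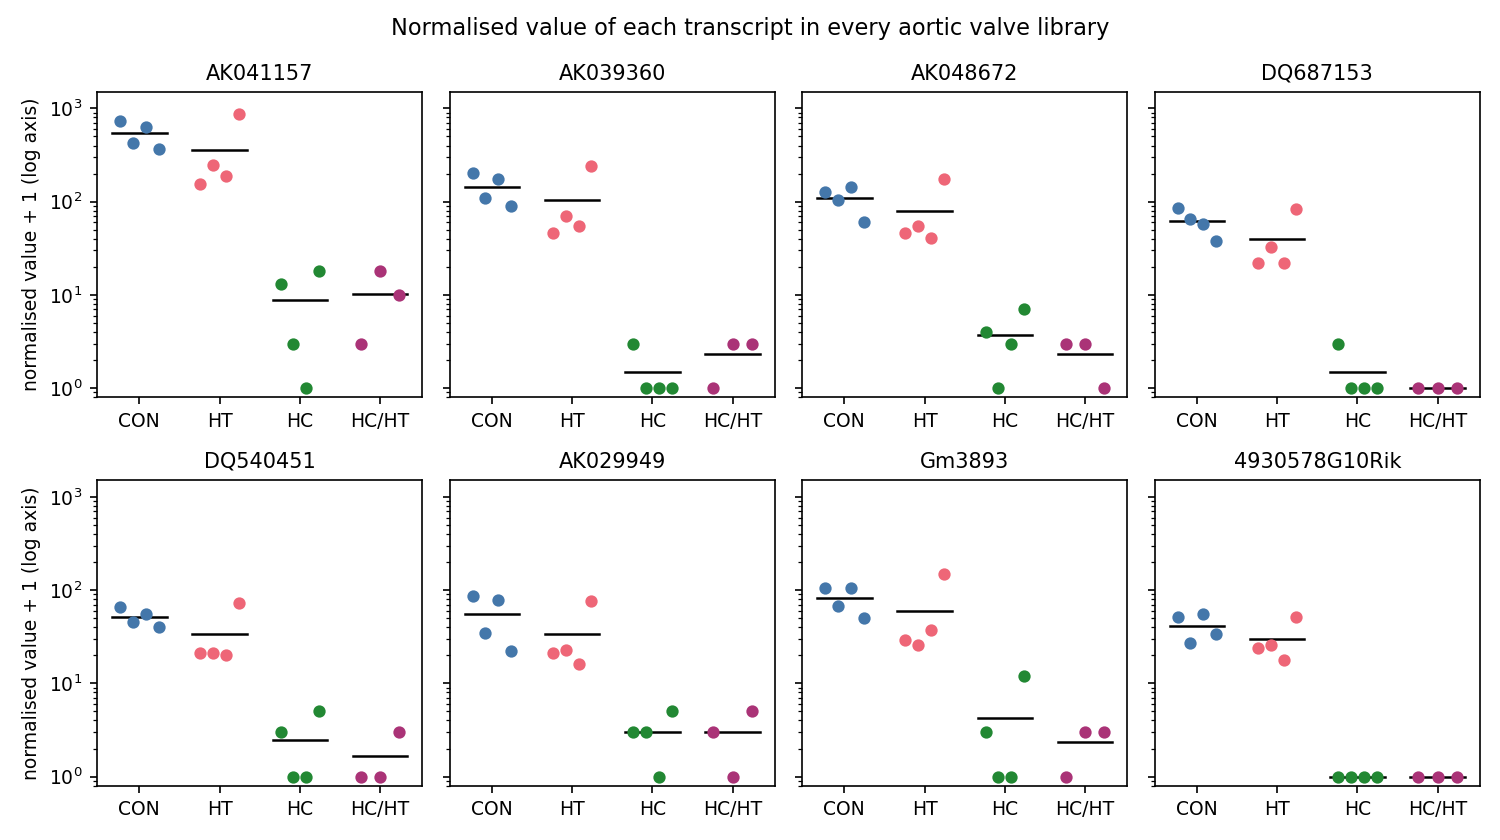
Normalised value plus 1 (log axis) of each of the 8 transcripts in the 4 CON, 4 HT, 4 HC and 3 HC/HT libraries; points are libraries in replicate order and bars are group means. All intact libraries lie at 15 or more and all knockout libraries at 17 or less, with no overlap within any transcript.

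Of the 56 values of the 8 transcripts in knockout libraries, 29 were 0, 21 were between 2 and 4, and 6 were above 4, with 17 as the highest. Of the 64 values in intact libraries the lowest was 15 and the highest 861. The mean level left in the knockout libraries was 1.87% of the intact mean for AK041157, 0.695% for AK039360, 2.29% for AK048672 and 4.57% for AK029949. It was 0.574% for DQ687153, 2.75% for DQ540451 and 3.46% for Gm3893. These shares bracket the 1.31% left of Apoe itself, but values of 0 to 4 carry little precision. HC replicate 4 held the most, with the 8 transcripts summing to 42, and HC replicate 3 the least, with 2.

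A complete separation of this kind was rare in the table. All 8 transcripts passed the filter on low values (at least 10 in at least 4 libraries), which 15165 rows passed, and none of the 8 would have passed it on the knockout libraries alone. Intact libraries lay above all knockout libraries in 18 of the 15165 rows (0.119%), the 8 transcripts and Apoe among them. Knockout libraries lay above all intact libraries in 101 rows (0.666%). With an intact mean at least 10 times the knockout mean, 11 rows remained (0.0725%). They were the 8 transcripts, Apoe and 2 rows of low value, Gm10600 and AK047207. The other 7, with smaller ratios, were Vmn2r29, Clec3a, Lrrtm3, 4921513I03Rik, C5ar2, 4933409K07Rik and AU040972. Since the 8 were picked for this separation, their share among these rows is a description only.

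The fitted log2 differences, on log2 of the value plus 10 with sex as a term, describe the size of the gap in each pair of groups. For HC against CON and for HC/HT against HT, which have no library in common, they were -4.98 ± 0.51 (SE) and -3.97 ± 0.51 in AK041157. They were -3.65 ± 0.47 and -2.97 ± 0.47 in AK039360, and -2.65 ± 0.48 and -2.26 ± 0.48 in Gm3893. The pseudocount holds these values down, more so for transcripts of low value: over all intact and knockout libraries AK041157 differed by -4.48 with a pseudocount of 10, by -5.52 with 2.5 and by -3.06 with 40.

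Smooth muscle content moved partly with the intact groups. The summed smooth muscle markers were 17162, 5859, 25777 and 1483 in CON, 5993, 7705, 1016 and 12070 in HT, 1524, 5424, 1345 and 750 in HC, and 1048, 1096 and 466 in HC/HT. Intact libraries thus ran from 1016 to 25777 and knockout libraries from 466 to 5424, with overlap. Of the 5 smooth muscle markers 4 were above 0 in every library. Macrophage markers were higher in knockout libraries (15475 to 32642 over the 5 of 6 markers with a row) than in intact ones (1253 to 12035). The part of either cell type in the gap was not tested.

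Human renin and angiotensinogen were the next contrast, asked first in mice with Apoe. None of the 8 transcripts passed the test between HT and CON (limma, Benjamini-Hochberg adjusted p under 0.05), and none of the 15165 rows did (0.0%). At an unadjusted p under 0.05 there were 1922 of the 15165 rows and 0 of the 8. For 8 transcripts, 0 is near what that share would give. Fitted differences ran from -0.84 ± 0.48 (SE, adjusted p = 0.419) in AK041157 to -0.35 ± 0.37 (adjusted p = 0.600) in 4930578G10Rik, 4 libraries against 4. The median over the 8 was -0.59 and over all rows -0.42. Relative to that median the 8 ran from -0.43 to 0.06, with AK041157 the lowest.

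The HT group was not uniform in these transcripts. Gm3893 was 80.8 ± 27.7 (SD, n = 4) in CON and 59.5 ± 59.8 (SD, n = 4) in HT, where HT replicate 4 was 5.02 times the mean of the other 3 HT libraries. For the 8 transcripts this ratio ran from 2.35 in 4930578G10Rik to 5.02 in Gm3893. HT replicates 1 to 3 lay below all CON libraries and HT replicate 4 in 7 of the 8 transcripts, against 9.27% of all rows. The exception was AK029949, with 22 in HT replicate 2 and 21 in CON replicate 4. HT replicate 4 was the highest intact library in 5 of the 8, against 11.5% of all rows. Both orders of libraries were chosen with earlier results of these data known. The 8 transcripts also rose and fell together in the intact libraries, as described below, so they are not 8 separate observations. These counts are a description, and their difference from the shares of all rows was not tested.

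The deposited scale bears on this pattern, because a few abundant rows take unequal shares of the fixed total: the 4 most abundant rows took between 32.4 and 62.7% of a library. Dividing each library by its median-of-ratios factor (0.636 to 1.341) raised HT replicates 2 and 3 and lowered CON replicates 1 to 3. AK041157 then stood at 561, 314, 531 and 457 in CON and at 142, 383, 277 and 878 in HT. HT replicates 1 to 3 now lay below the CON libraries and HT replicate 4 in DQ540451 alone, 1 of 8 (1.97% of all rows). HT replicate 4 was highest of the intact libraries in 8 of 8 (15.8% of all rows). HT replicate 1 was lowest in 7 of 8, all but 4930578G10Rik (12.8% of all rows). The counts on this scale have the same limits, and their difference from the shares of all rows was not tested. The difference between HT and CON in 4930578G10Rik became 0.01, and that in AK041157 -0.37. So the high value of HT replicate 4 was present on both scales, from 1.82 to 3.85 times the mean of the other 3 HT libraries on the rescaled one, while the low values of HT replicates 2 and 3 depended on the scale.

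**Figure D2:**
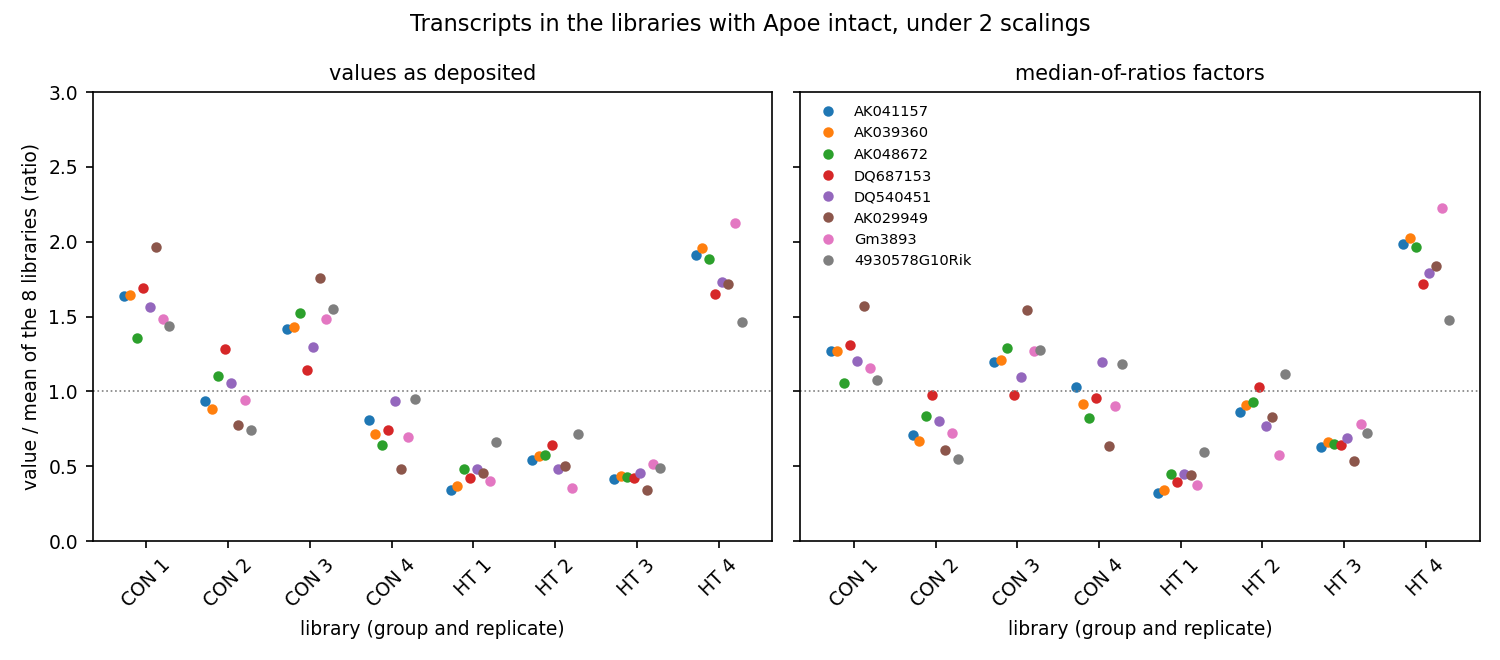
Value of each of the 8 transcripts in the 4 CON and 4 HT libraries, divided by its mean over these 8 libraries (ratio), as deposited on the left and after median-of-ratios scaling on the right; points are transcripts, with colours as in the legend. HT replicate 4 lies above 1 for all 8 on both sides, and HT replicates 2 and 3 rise towards 1 on the right.

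In mice without Apoe the transgenes were compared at the bottom of the scale. None of the 8 passed the test between HC/HT and HC (limma, 3 libraries against 4, 0.0% of all rows passed), with differences from -0.18 in Gm3893 to 0.16 in AK041157 and adjusted p from 0.993 to 0.999. At an unadjusted p under 0.05 there were 667 rows and 0 of the 8. Values in both groups were so low that a difference between them was hardly detectable. Because values near 0 in both groups were a condition of the choice, this outcome was largely set in advance. It gives no information on the transgenes.

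Females and males were also compared. Of the 8 transcripts 0 passed, against 6 of the 15165 rows (0.0396%), with differences of females minus males from -0.32 in AK029949 to -0.08 in AK041157, all with an adjusted p of 1.0 in limma. The 3 intact females, CON replicate 2 and HT replicates 1 and 2, had sums of the 8 transcripts of 867, 357 and 492. The 5 intact males ran from 388 to 1707, a range that held 2 of the 3 females.

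Within the 8 intact libraries the transcripts rose and fell together. AK039360 stayed at 27.5 ± 1.69% (SD, n = 8) of the AK041157 value, between 24.2 and 29.0%, although AK041157 itself differed 5.55-fold between the lowest and the highest library. This is a description, a ratio of 2 deposited values and not of molecules, since the lengths are not known here. The SD of the log2 ratio was 0.09, against an SD of 0.90 for the log2 level of AK039360. The ratios of the other 6 to AK041157 had log2 SDs from 0.23 in DQ540451 to 0.44 in 4930578G10Rik. For Apoe the same SD was 1.19, with a ratio that differed 12.9-fold between libraries.

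Whether the AK and DQ rows overlap each other, or the copies of Gm3893, on the genome was not examined. Rows could therefore share reads, and the pairs below need not be separate measurements. All 28 pairs among the 8 transcripts passed an exact permutation test of Pearson's r over the 8 intact libraries (log2 of the value plus 10, two-sided, Benjamini-Hochberg over 36 pairs). Pearson's r lay between 0.83 and 0.99 with a median of 0.95, and Spearman's rho between 0.75 and 1.0, with adjusted permutation p up to 0.0259 for r and 0.0491 for rho. Without the 2 libraries farthest from the median of the first transcript of a pair, r lay between 0.66 and 0.99. AK041157 and AK039360 ranked the 8 libraries in the same order (rho = 1.0, exact permutation p = 4.96e-05). The 2 chromosome 4 genes, Gm3893 and 4930578G10Rik, had r = 0.874 and rho = 0.838 (exact permutation p = 0.00898 and 0.0131, adjusted 0.012 and 0.0181), and 0.885 for r without the 2 libraries.

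For Apoe, r with the 8 transcripts lay between 0.40 and 0.61, and 0 of 8 pairs passed (exact permutation, adjusted p from 0.105 to 0.363). Without the 2 farthest libraries r with Apoe lay between 0.39 and 0.85, which overlaps the range of the 28 pairs treated the same way, and with AK041157 it was 0.845. The difference between these correlations and those among the 8 was not tested. With median-of-ratios scaling all 28 pairs of the 8 transcripts still passed by r and 21 by rho, and r with Apoe lay between -0.02 and 0.27. Without the 2 farthest libraries, r on that scale lay between 0.31 and 0.97 among the 28 and between 0.20 and 0.90 with Apoe. On residuals of the group means, which remove the difference between CON and HT, 28 pairs passed by r and 20 by rho, with r down to 0.25 without the 2 farthest libraries.

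**Figure D3:**
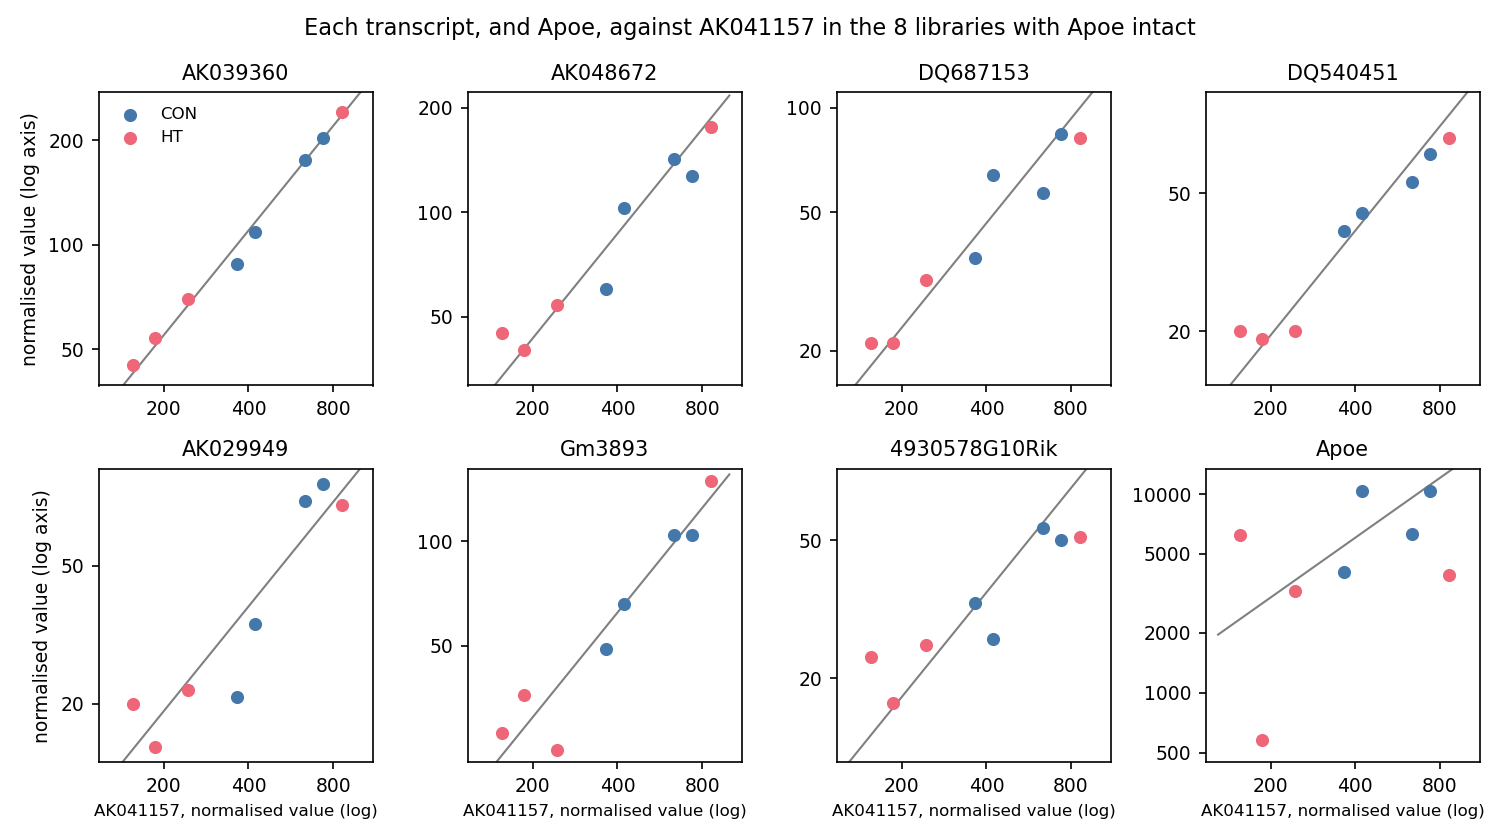
Normalised value of 7 transcripts and of Apoe against AK041157 in the 4 CON and 4 HT libraries (both axes log); points are libraries and the grey line is the mean ratio. AK039360 keeps to the line within 24.2 to 29.0%, the other transcripts scatter more, and Apoe scatters most over all 8 libraries.

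Part of any such correlation is common to all rows, because the libraries share a scale. Over the 15156 rows other than the 8 and Apoe, r with AK041157 in the intact libraries had a median of 0.36 and a 95th percentile of 0.80. The lowest r of the other 7 transcripts with AK041157 was 0.919, and 47 rows (0.31%) reached it. With median-of-ratios scaling the median was 0.01, the lowest of the 7 was 0.86, and 88 rows (0.581%) reached it. The shared variation of the 8 was thus stronger than that of most rows on both scales, but other rows had it too.

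The rows most like the 8 over all 15 libraries were found by the correlation of each row with the mean of the standardised 8. This measure is led by the gap between intact and knockout libraries and is a description. The highest were AK047207 (r = 0.966), 4933409K07Rik (0.945), Gm10600 (0.944), Apoe (0.936), Vmn2r29 (0.911), Flrt1 (0.904), C5ar2 (0.903) and Rxfp4 (0.876). AK047207 and Gm10600 were low rows: AK047207 was at 5 to 24 in intact libraries and at 0 in 6 of 7 knockout libraries, and Gm10600 was at 2 to 18 and at 0 in all 7.

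4933409K07Rik, a transcribed pseudogene that RefSeq assigns to chromosome 4 without a position used here, showed the pattern on a raised floor. It was at 1876, 1393, 1900 and 1062 in CON, at 777, 792, 771 and 2214 in HT, at 524, 469, 426 and 427 in HC and at 584, 369 and 666 in HC/HT. Its order among intact libraries resembled that of AK041157 (r = 0.976 on both scales), with HT replicate 4 highest and HT replicates 1 to 3 close together. The knockout mean was 36.7% of the intact mean, so that, unlike the 8, it was well above 0 in every knockout library. The fitted difference between knockout and intact libraries was -1.21 ± 0.25 (SE), given without a test because the likeness measure rests on the same gap.

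**Figure D4:**
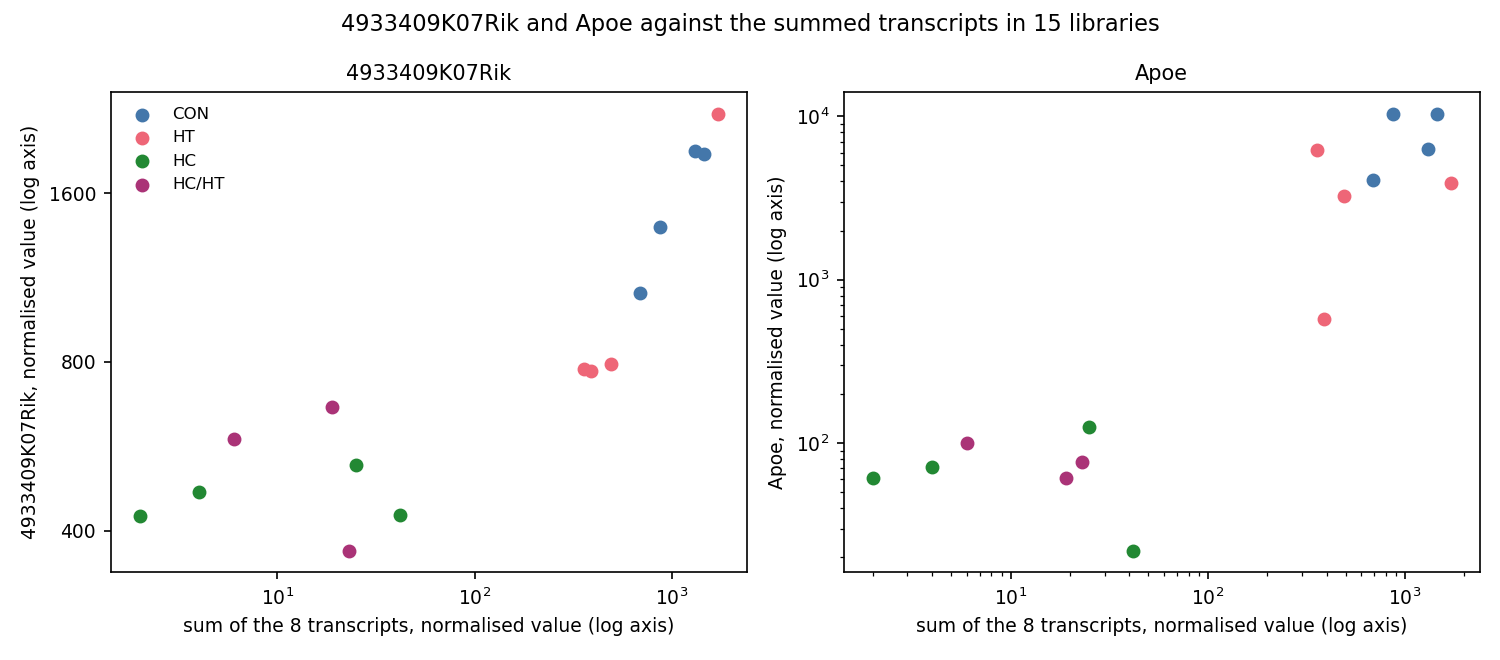
4933409K07Rik (left) and Apoe (right) against the sum of the 8 transcripts in each of the 15 libraries, as normalised values on log axes; points are libraries, coloured by group. In intact libraries 4933409K07Rik rises with the sum, from 771 to 2214, and in knockout libraries it stays between 369 and 666 while the sum lies between 2 and 42.

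The remaining rows most like the 8 are described the same way. Vmn2r29, a vomeronasal receptor gene on chromosome 7, had a knockout mean that was 17.8% of the intact mean. For C5ar2, the second receptor for the complement fragment C5a and also on chromosome 7, the share was 32.1%. It was 14.3% for Flrt1, a membrane protein gene, and 14.8% for Rxfp4, the receptor for the gut hormone INSL5. Vmn2r29 and C5ar2 were above 0 in every knockout library, with lowest values of 2 and 11. Flrt1 was at 0 in 3 knockout libraries and Rxfp4 in 4. Both of these overlapped the intact libraries, with knockout values up to 5 and intact values from 3.

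The neighbours of the chromosome 4 genes were examined next. Within 1 Mb of Gm3893 or 4930578G10Rik lay 63 other rows, of which 49 were tested, and 0 passed between knockout and intact libraries, against 1.46% of all rows (limma, 221 of 15165). With 49 rows tested, a count of 0 is near what the share over all rows would give. The median difference of the 49 was 0.05, beside 0.09 for all rows. Of the 49, only Gm10600, itself a copy of Gm3893, had intact libraries all above knockout libraries, against 0.119% of all rows. Gm10600 is a low row that met the filter through intact libraries alone, so this count is a description.

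Closer in, 8 rows start within the 1.05 Mb over which copies of Gm3893 are spread, and 5 of them were tested. This set was drawn up after the values were seen. Differences between knockout and intact libraries were -1.16 ± 0.65 (SE, adjusted p = 0.663) in the predicted gene Gm21541 and -0.93 ± 0.33 (adjusted p = 0.222) in Fam205a2. They were -0.12 ± 0.40 (adjusted p = 0.975) in Il11ra2 and -0.73 ± 0.55 (adjusted p = 0.792) in Ccl19. None of these rows passed the test (limma). Gm10600 was listed at 0 in all knockout libraries, so its fitted value depends on the pseudocount. It met the filter on low values through intact libraries alone and is among the rows most like the 8. Whether it passed also changed with the settings of the fit, so no p-value is given for it. Fam205a2 was at 27 to 63 in intact libraries and at 4 to 43 in knockout libraries, so the groups overlapped. Its knockout mean was 40.6% of the intact mean. Among the rows not tested, Fam205a1 was at 6 to 17 in intact and 0 to 6 in knockout libraries, a knockout mean of 20.8%. Gm13306 was at 0 to 11 and 0 to 5, and Gm21953 at 0 to 9 in both.

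**Figure D5:**
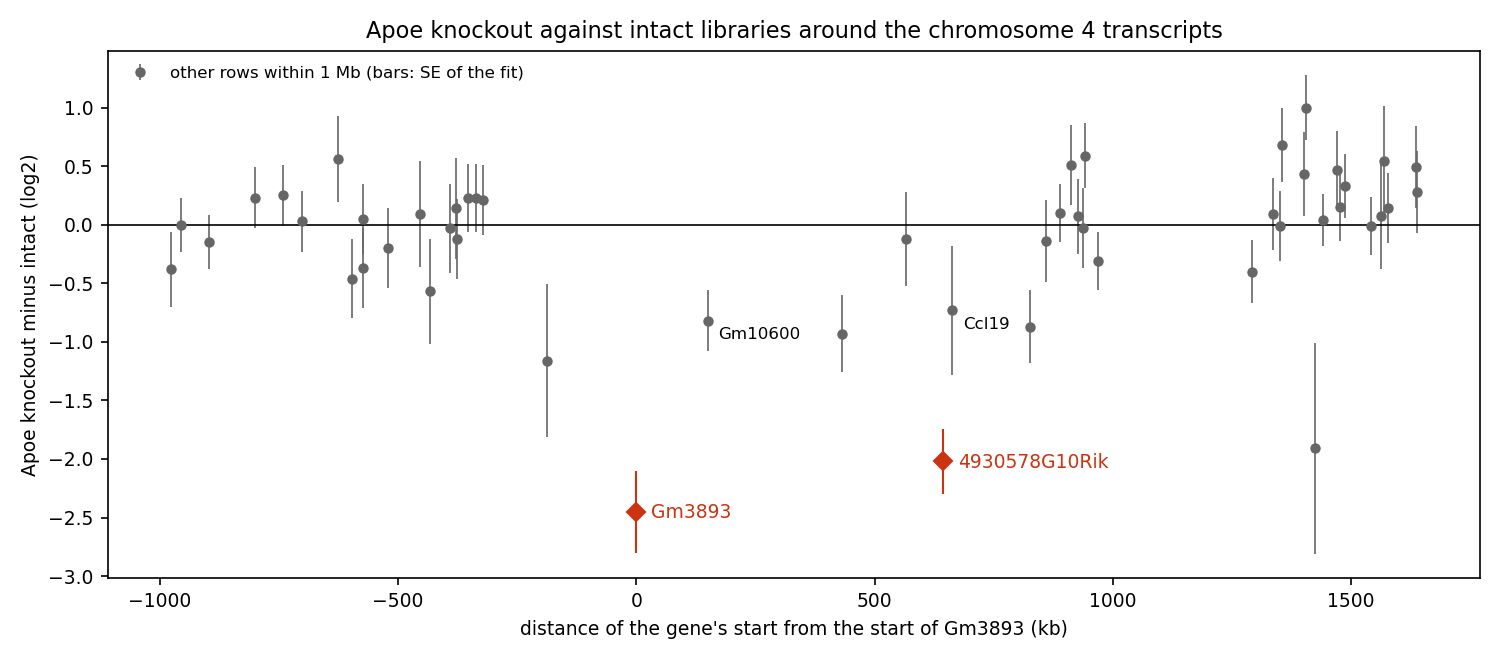
Fitted difference between Apoe knockout and intact libraries (log2, y axis) for the tested rows around the chromosome 4 genes, by distance of their start from that of Gm3893 (kb, x axis); bars are standard errors of the fit. Gm3893, chosen for this difference as 4930578G10Rik was, lies at -2.45, and none of the 49 other rows passed the test. That count is near what the share over all rows would give. The points of 4930578G10Rik and Gm10600, listed at 0 in all knockout libraries, are set by the pseudocount of 10.

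Ccl19, the chemokine that draws CCR7-bearing lymphocytes and dendritic cells, lies inside the span of 4930578G10Rik. It was at 1035, 1184, 364 and 224 in CON, at 386, 494, 54 and 245 in HT, at 888, 463, 469 and 114 in HC and at 106, 388 and 178 in HC/HT. Knockout and intact libraries overlapped throughout, and Ccl19 was far from 0 where 4930578G10Rik was listed at 0. Copies of Ccl19 and of the other neighbours except Gm10600 were not searched for. Their rows may therefore also hold reads from copies. Of the 12 genes of the chemokine and interleukin-11 receptor list 8 have a row, 7 were tested and 0 passed in any of the 6 comparisons; over all rows 0.165% passed between HC and CON and 0.376% between HC/HT and HT. Il11ra1, the interleukin-11 receptor subunit, was at -0.03 ± 0.38 (adjusted p = 0.996) and Ccl27a, a skin-associated chemokine, at 0.21 ± 0.30 (adjusted p = 0.912). With 7 rows tested, a count of 0 is near what the shares over all rows would give. Ccl21a, Ccl21b, Ccl21c and Ccl27b have no row of that name.

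Around Apoe itself, within 1 Mb on chromosome 7, 59 other rows lay and 42 were tested. None passed as lower in knockout libraries (0.185% of all rows). Igsf23, an immunoglobulin superfamily gene, passed as higher (1.27% of all rows), at 1.25 ± 0.31 (limma adjusted p = 0.0342), from 0 to 24 in intact libraries to 9 to 34 in knockout libraries. With 42 rows tested, both counts are near what the shares over all rows would give. Low rows that were not tested went both ways. Psg17 was at 2 to 12 in intact and at 0 in all knockout libraries, and Ceacam19 at 0 to 2 and 0 to 64.

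Other rows with the same styles of name were counted between knockout and intact libraries, where 1.27% of all rows passed as higher and 0.185% as lower. Of 1788 other AK rows 800 were tested, and 3 (0.375%) passed as higher and 2 (0.25%) as lower. Of 28 other DQ rows 20 were tested and 0 passed, with a median difference of 0.08. Of the other Gm rows 280 were tested, with 1 (0.357%) higher and 0 lower, and of the other Rik rows 639, with 2 (0.313%) higher and 1 (0.156%) lower. Of 17 genes of the piRNA pathway, PIWI proteins and the factors that make or amplify piRNAs, 4 passed the filter on low values and 0 passed the test, with a median difference of 0.04. With 20 and 4 rows tested, a count of 0 for the DQ rows and the piRNA genes is near what the share over all rows would give.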

How the data were processed

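The authors deposited 1 table of normalised counts rounded to whole numbers, treated here as a score because it is no longer raw. Per the submitters' processing notes, reads were handled with Bowtie 1.0.1 on mm10, with SAMtools 0.1.9, FastQC 0.11.2 and edgeR also named; the sources used here do not give the normalisation. Per the labels' protocols, total RNA was amplified with Nugen Ovation v2 from 1 ng. Of 16 value columns 15 were mapped by name to libraries; 1 has no name and was not used, and HC/HT replicate 4 is not analysed here.

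Rows with at least 10 in at least 4 libraries (15165) entered a limma 3.58.1 fit (R 4.3.3, trend and robust) on log2(value + 10), with group and labelled sex, all 15 libraries in 1 fit. P-values are two-sided, adjusted over all 15165 rows, and passed under 0.05. The fit was checked on simulated data with independent noise. The changes added there were larger than the HT against CON differences of the 8, so differences of that size were not covered. Copies were searched with blastn 2.17.0 in GENCODE M21 transcripts at 95% identity or more. Named rows were the 8, Apoe, up to 6 near neighbours on chromosome 4, the chemokine list, 8 rows most like the 8, and the 5 low rows with the largest difference in the opposite direction. Members, lists and rules were chosen with earlier results of these data known.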

Additional observations from a re-analysis of the deposited data

Results flagged for a closer look

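In groups of 4 libraries, a library was taken to stand apart when its gap to the nearest other, as a share of the group's range, exceeded Dixon's critical value. Over 16 rows (the 8 transcripts, Apoe and 7 of the rows most like them) and 3 groups, this held in 13 of 48; chance marks about 1 group in 20, and rows that vary together are not separate tests.

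HT replicate 4 was the highest of its group by this measure in 6 of the 8 transcripts. It was at 861 in AK041157, 241 in AK039360, 176 in AK048672, 72 in DQ540451, 75 in AK029949 and 149 in Gm3893. The same library stood apart at 2214 in 4933409K07Rik and at 75 in Vmn2r29. In the knockout libraries the measure marked only single steps above 0: a value of 2 in HC replicate 1 for AK039360 and DQ687153, and a value of 2 in HC replicate 4 for AK047207 and Rxfp4. CON replicate 3 stood apart at 25 in Flrt1, a membrane protein gene of low value here.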

How the results depend on the processing

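Under all 26 alternatives fitted, 0 of the 8 transcripts passed between HT and CON or between HC/HT and HC, and 0 of the 8 passed between the sexes under the 24 in which the sexes were compared; with a filter at 50 only 5 of the 8 were tested. Their HT against CON differences kept their sign except 4930578G10Rik, which moved from -0.35 to 0.01 with quantile normalisation and to 0.01 with median-of-ratios factors. That of AK041157 ran from -1.51 (without HT replicate 4) to -0.37. All 28 pairs of the 8 passed by Pearson's r under the 3 alternatives run, and 0 of 8 with Apoe. Apoe stayed between -6.22 and -5.33 (exact permutation p from 0.000155 to 0.000583).

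Counts over all rows moved more. Knockout against intact gave 221 rows (193 higher, 28 lower), 218 with median-of-ratios factors (165 and 53), 116 with no filter, 342 without the sex term and 480 with array weights, and 71 (without HT replicate 2) to 416 (without HT replicate 1) when 1 library was left out. HT against CON gave 0 rows, but 374 with array weights, 206 with only the groups compared and 0 to 2 with 1 library left out. HC/HT against HC gave 0, 2 with array weights and 0 to 3 with 1 left out. Females against males gave 6, and 13 with array weights. HC against CON gave 25, 41 without the sex term, 314 with array weights, 48 with only the groups compared and 9 to 51 with 1 left out. HC/HT against HT gave 57, 36 with median-of-ratios factors, 36 at pseudocount 2.5, 8 with no filter, 30 with array weights, 27 without trend and robust, 223 with only the groups compared and 7 to 259 with 1 left out. The causes were not tested.

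Correlations between same-numbered libraries were weak: of 21 same-numbered pairs 8 had a correlation over 0.1 (range -0.12 to 0.27), and 4 of 15 libraries correlated best with their own number. Whether replicate numbers pair the libraries was not tested. With the replicate number as a block, 1 row passed in HT against CON, 1 in HC/HT against HC, 339 in knockout against intact, 138 in HC/HT against HT and 43 in the comparison of HC with CON. Each of these counts was higher than without the block. Depth is unknown, so values of 0 to 4 in knockout libraries give no limit of detection.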

Other observations

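Some rows had the opposite pattern, low in intact and present in all knockout libraries. The 5 given here have the largest differences among rows with an intact mean under 10 and no overlap. They were selected for this separation, so their values are a description without a test. Cd5l, a protein secreted by tissue macrophages, was at 0 to 20 in intact libraries and at 209, 392, 554 and 408 in HC and 259, 330 and 334 in HC/HT. Stra6l, a relative of the retinol transporter, was at 0 to 17 against 23 to 101. F7, coagulation factor VII, was listed at 0 in all 8 intact libraries and at 5 to 52 in the 7 knockout libraries. Ugt1a7c, a glucuronosyltransferase, was at 0 to 14 against 20 to 46. Cd101, a leukocyte surface protein, was at 0 to 8 against 12 to 642, with HC replicate 3 alone at 642 and the other knockout libraries at 36 or less.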
